A study of Mus musculus with 6 samples.

Results

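MHC class II presentation was described through 10 genes, taken by name from the 21878 genes of the deposited count table: H2-Aa, H2-Ab1, H2-Eb1, H2-DMa, H2-DMb1, H2-DMb2, Cd74, Ciita, Ctss and Ifi30. RNA came from tumour-associated macrophages (TAMs) sorted from tumours of MC38, a mouse colon carcinoma line, 14 days after injection. The 3 WT libraries were from mice with floxed Trmt61a (Trmt61a f/f), and the 3 KO libraries from mice that in addition carried LysmCre, a Cre recombinase driven from the lysozyme gene of myeloid cells. Trmt61a encodes the catalytic subunit of an enzyme that methylates adenosines of tRNA. Both groups therefore shared the floxed alleles and the tumour, and differed by the Cre and the deletion. The age, strain and sorting gate of the mice are not given in the sources used here, nor whether each library came from its own mouse. The p-values therefore refer to library-to-library spread, part of which may be technical.

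MHC class II molecules are pairs of an alpha and a beta chain that show peptides from engulfed proteins to CD4 T cells. Newly made pairs are held by the invariant chain, Cd74, and brought to endosomes, where cathepsin S (Ctss) cuts the invariant chain, the reductase GILT (Ifi30) opens disulphide bonds of the antigen, and the DM molecule exchanges the last piece of invariant chain for a peptide. Ciita is the coactivator that turns these genes on together. It does not bind DNA itself and is recruited by the factors RFX, CREB and NF-Y, which sit on the X and Y boxes upstream of class II genes. In macrophages Ciita is induced by interferon gamma.

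Sequences before the RefSeq starts are shown because the X and Y boxes are the promoter feature that class II genes, Cd74 and the DM genes are known to have in common. RefSeq promoter windows (GRCm38.p6, 250 bases before to 50 after the annotated start) were found for 7 of the 10 genes, in 8 windows. Ciita, Cd74 and H2-Ab1 were not matched. The 150 bases before the RefSeq start are printed on the gene's strand, with motif letters matched on that strand in capitals. For H2-Eb1 (chr17:34305717-34305866, plus strand) and H2-DMb2 (chr17:34145099-34145248, plus strand) the capitals are the X box core AACNGATG followed by the Y box core ATTGG. For H2-Aa (chr17:34287824-34287973, minus strand) they are the cAMP response element TGACGTCA and the Y box core. For Ctss (chr3:95526636-95526785, plus strand) they are an element of the interferon regulatory factors, searched as GAAA, any 2 bases and GAAA again.
H2-Eb1: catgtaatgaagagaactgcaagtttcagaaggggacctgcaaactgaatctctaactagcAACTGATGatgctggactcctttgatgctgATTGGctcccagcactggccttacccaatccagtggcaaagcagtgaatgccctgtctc
H2-DMb2: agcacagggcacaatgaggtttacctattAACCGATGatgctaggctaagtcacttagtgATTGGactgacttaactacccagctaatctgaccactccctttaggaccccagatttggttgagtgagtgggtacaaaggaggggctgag
H2-Aa: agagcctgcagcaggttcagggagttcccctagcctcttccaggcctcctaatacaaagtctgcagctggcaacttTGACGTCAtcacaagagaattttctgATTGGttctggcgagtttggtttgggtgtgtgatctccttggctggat
Ctss: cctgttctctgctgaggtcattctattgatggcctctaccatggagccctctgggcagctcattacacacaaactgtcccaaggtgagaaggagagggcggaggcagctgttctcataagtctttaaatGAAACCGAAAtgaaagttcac
Counted from the base before the start, the X box core ended 82 bases upstream in H2-Eb1, 114 in H2-DMb2 and 85 in H2-DMb1, and 22, 23 and 23 bases lay between it and the Y box core. H2-Eb1 held a further Y box core on the opposite strand, 35 to 31 bases before the start, which is not in capitals. The printed H2-DMb2 stretch lies before the RefSeq start but inside the longer GENCODE gene, and 13 of its bases are in a GENCODE exon. H2-DMb1 had the same order of motifs, with AACTGATG as its X box core. Both cores were on the gene's strand in 3 of the 8 windows of these genes and in 80 of all 32851 windows (0.244%). Those 3 windows include both of the close copies H2-DMb1 and H2-DMb2. On either strand the Y box core alone was in 5 of 8 windows and in 37.4% of all windows, and the X box core alone in 4 of 8 and 2.32%. The cAMP response element was in 1 of 8 and 1.79%, and the interferon regulatory factor element in 1 of 8 and 3.44%. The letters of the X and Y box cores do not overlap in these windows. The letters were chosen with these sequences in view, so the shares in the 8 windows are no independent comparison with all windows. A match describes the letters only.

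Each library held between 18839026 and 20313597 counts, and all 10 genes passed the filter on low counts. Trmt61a, the deleted gene, was at 8.01, 6.95 and 7.38 CPM in WT (CPM, the gene's count scaled to a common library total) and at 2.13, 1.73 and 2.46 CPM in KO (log2 fold change -1.81, SE 0.197, edgeR adjusted p = 0.0426), so the libraries followed their labels. All 11 macrophage markers were detected and summed to between 13102 and 15457 CPM in each library. Every pair of libraries differed by more than counting noise (chi-square per degree of freedom of at least 7.95). KO replicate 1 stood apart from the other libraries in the genes described here, and the fold changes of the 10 genes, the chain sum, the ratios and the sums of dendritic, T and NK, and B cell markers are therefore given with and without it. That library was singled out from the values of these same genes, being the lowest for all 10. The upward shift of their fold changes without it follows from that choice. The fits without it, with their narrower intervals, are therefore no independent result. In bulk RNA, fewer cells that carry class II and less class II RNA per cell cannot be told apart.

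KO and WT macrophages did not differ detectably in MHC class II RNA. Of the 10 genes, 0 passed at an adjusted p under 0.05 with edgeR, where 0.0165% of all 12136 tested genes passed, and 0 had an unadjusted p under 0.05, where 6.92% of all genes did. DESeq2 also called 0 of the 10 (0.239% of all genes). The log2 fold change was negative for 9 of 10, against 50.2% of all tested genes, with a median of -0.14 against -0.00088 over all genes. Without KO replicate 1 it was negative for 5 of 10, the median was 0.060, and again 0 passed and 0 had an unadjusted p under 0.05 (0% and 5.03% of all genes). In the fit without KO replicate 1 no gene of the whole table passed, so the deleted gene Trmt61a did not either. That 0 of the 10 genes passed there is therefore not informative. Without KO replicate 2 the log2 fold change was negative for 10 of 10, with a median of -0.36. Again 0 passed, and 1 gene, Ciita, had an unadjusted p under 0.05. Over all 12245 genes tested in that setting 5 passed, and at an unadjusted p under 0.05 322 were higher and 423 lower in KO. The lower ends of the 95% intervals with all libraries lay between folds of 0.527 for Ciita and 0.821 for Ifi30, and the upper ends between 1.07 for Ifi30 and 1.43 for H2-Aa.

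**Figure D1:**
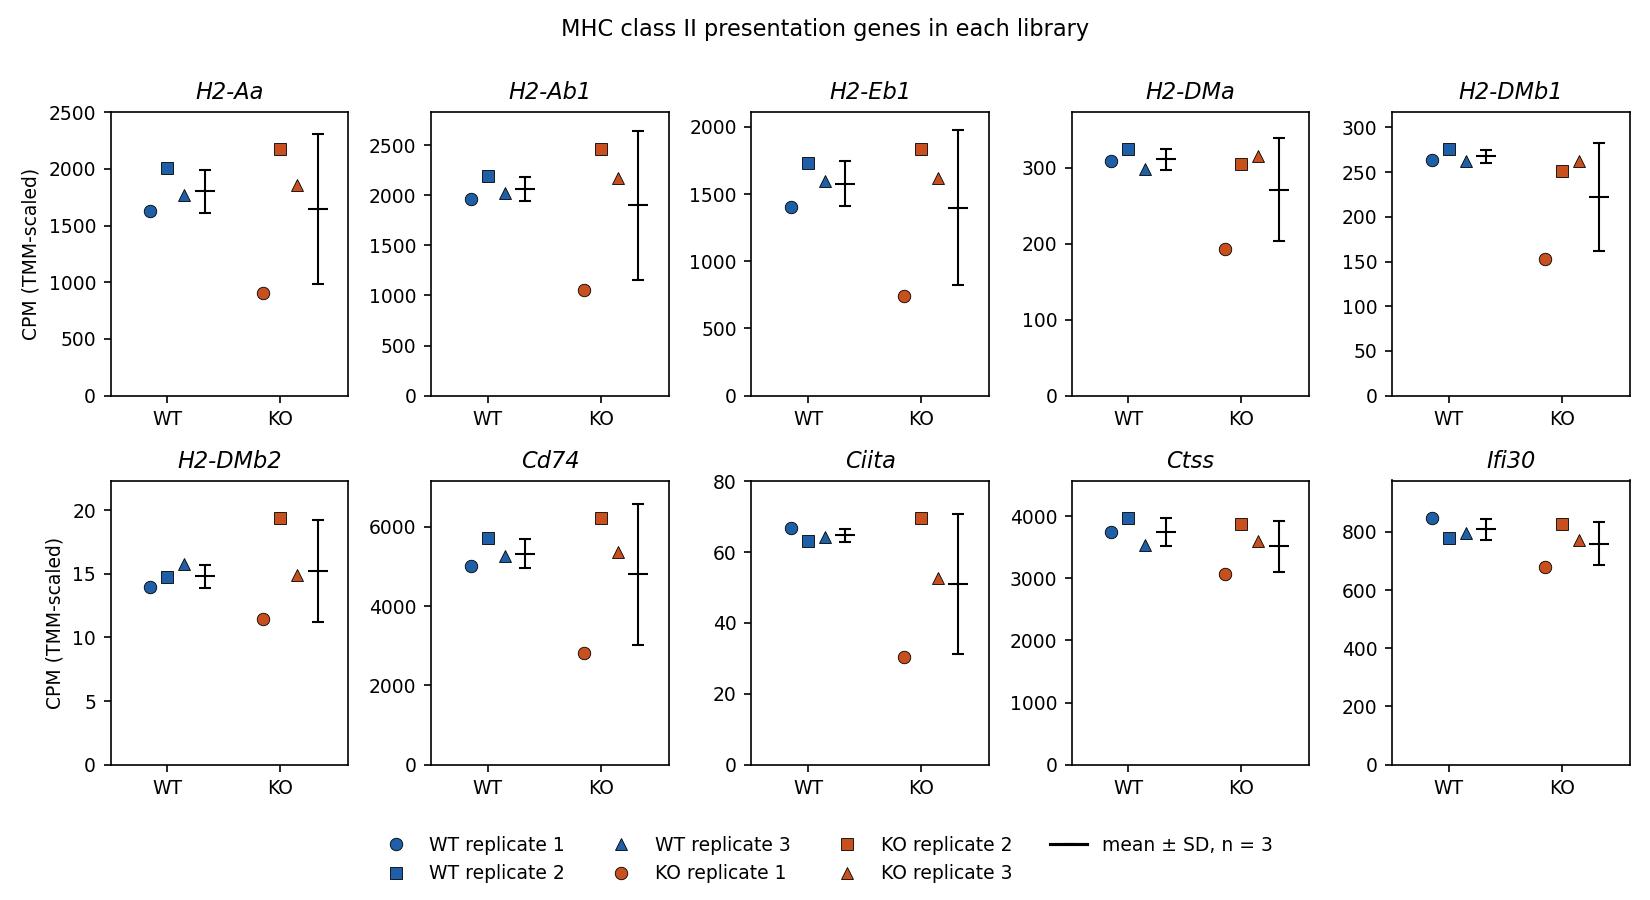
CPM of the 10 genes (y axis, linear from 0) in each of the 6 libraries, with replicates 1 to 3 as circle, square and triangle and the mean ± SD of each group as a bar beside the points. KO replicate 1 is the lowest point in each of the 10 panels, while KO replicates 2 and 3 lie among or near the WT libraries.

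KO replicate 1 was the lowest of the 6 libraries for 10 of the 10 genes, and it was the lowest for 20% of all tested genes. Its levels, as a percentage of the WT mean, were 46.9 for Ciita, 47.1 for H2-Eb1, 50.1 for H2-Aa, 51.3 for H2-Ab1, 52.8 for Cd74 and 57.0 for H2-DMb1. They were 62.1 for H2-DMa, 77.1 for H2-DMb2, 81.8 for Ctss and 84.0 for Ifi30. Thus the 2 lysosomal enzymes were nearer to the WT level in this library than the chains, the invariant chain and the transactivator. KO replicate 2 was the highest of the 6 libraries for 6 of the 10 genes, and the same share over all genes was not counted. KO replicate 2 ran from 94.0% of the WT mean for H2-DMb1 to 131% for H2-DMb2. KO replicate 3 ran from 81.4% for Ciita to 106% for H2-Ab1. Among the WT libraries the SD was between 2.85% of the mean for H2-DMb1 and 10.6% for H2-Aa.

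**Figure D2:**
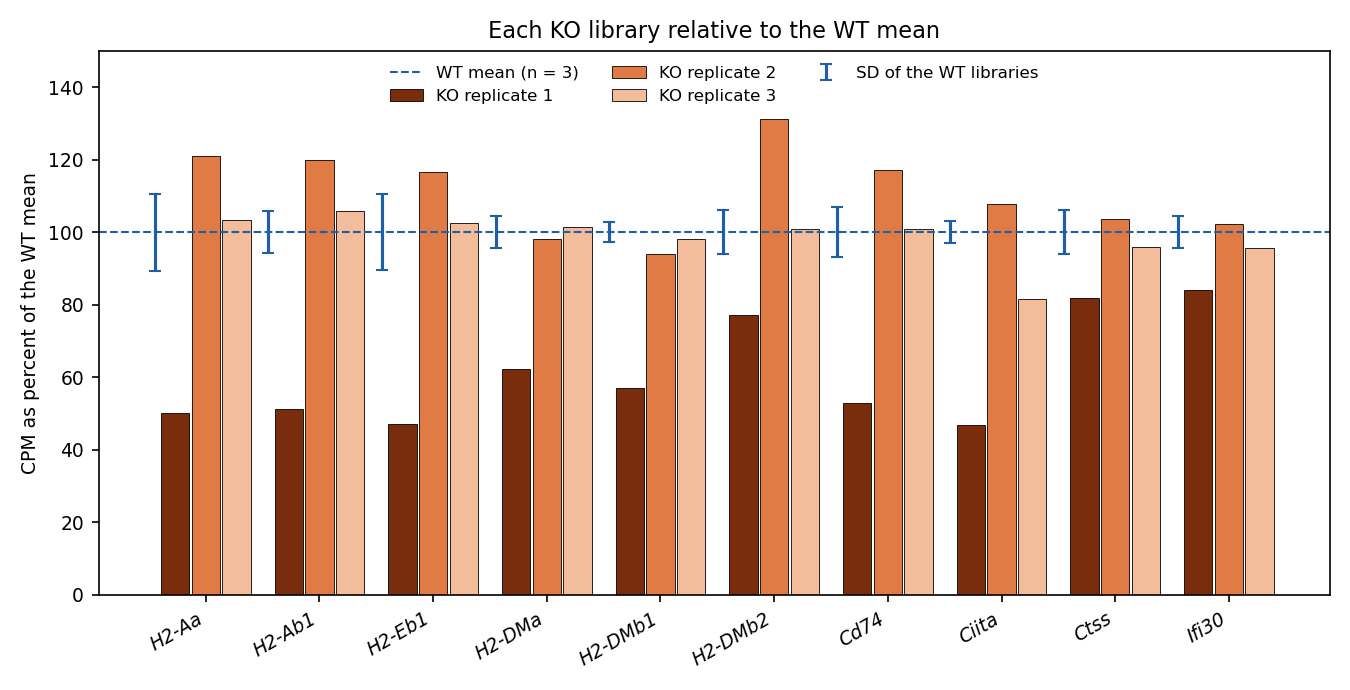
CPM of each KO library as a percentage of the WT mean (y axis, bars from 0) for the 10 genes, with the WT mean as a dashed line and the SD of the 3 WT libraries as blue bars. KO replicate 1 sits between 46.9% and 84.0%, and the bars of KO replicates 2 and 3 between 81.4% and 131%.

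The chains of the class II molecules lie together on chromosome 17 (GRCm38): H2-Ab1 at 34257689 to 34269419 on the plus strand, H2-Aa at 34282744 to 34287823 on the minus strand and H2-Eb1 at 34305867 to 34316674 on the plus strand. H2-Aa and H2-Ab1 encode the alpha and beta chains of the A molecule. H2-Aa was at 1632, 2011 and 1768 CPM in WT and at 904, 2180 and 1861 CPM in KO. H2-Ab1 was at 1963, 2193 and 2019 CPM in WT and at 1056, 2465 and 2176 CPM in KO. In both genes 2 of the 3 KO libraries lay above the WT mean and 1 far below the lowest WT library, so the groups overlapped.

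The fitted differences of the A chains were small beside their errors. H2-Aa had a log2 fold change of -0.13 (SE 0.280, 95% interval -0.78 to 0.52, edgeR adjusted p = 0.931) and H2-Ab1 one of -0.12 (SE 0.268, interval -0.74 to 0.50, edgeR adjusted p = 0.935). Without KO replicate 1 the sign turned, to 0.16 (interval -0.093 to 0.42) for H2-Aa and 0.17 (interval -0.041 to 0.39) for H2-Ab1, with an edgeR adjusted p of 0.949 for both.

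H2-Eb1 encodes the beta chain of the E molecule. It was at 1401, 1733 and 1598 CPM in WT and at 743, 1839 and 1618 CPM in KO. Its order over the KO libraries was that of the A chains. KO over WT was -0.17 on the log2 scale (SE 0.290, interval -0.84 to 0.50, edgeR adjusted p = 0.906), and 0.13 without KO replicate 1 (interval -0.12 to 0.38, edgeR adjusted p = 0.951). H2-Eb1 overlaps an annotated RNA on the opposite strand, and the strand setting of the counting was not given in the sources used here. H2-Ea-ps, the gene of the partner alpha chain, which is a pseudogene in the reference strain, had 2 reads in WT replicate 3, 3 in KO replicate 2 and 0 in the other 4 libraries.

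Added up, the RNA of the 3 chains came to 4996, 5937 and 5385 CPM in WT and to 2703, 6484 and 5655 CPM in KO. The means were 5439 ± 473 CPM in WT and 4947 ± 1987 CPM in KO (SD, n = 3 each; two-sided exact permutation p = 0.9, where 0.1 is the smallest the test can give). The KO group therefore held both the lowest and the highest library, and its SD was set by replicate 1. Without that library the KO mean was 6070 CPM (exact permutation p = 0.3).

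Cd74 encodes the invariant chain, which fills the groove of new class II molecules and steers them to endosomes (chromosome 18, 60803848 to 60812652, plus strand). It was the most abundant of the 10 RNAs, at 4999, 5720 and 5249 CPM in WT and at 2813, 6230 and 5372 CPM in KO. Its KO libraries bracketed the WT libraries in the same order as those of the chains. On the log2 scale KO over WT was -0.15 (SE 0.253, interval -0.73 to 0.44, edgeR adjusted p = 0.907), and 0.12 without KO replicate 1 (interval -0.11 to 0.36, edgeR adjusted p = 0.949).

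**Figure D3:**
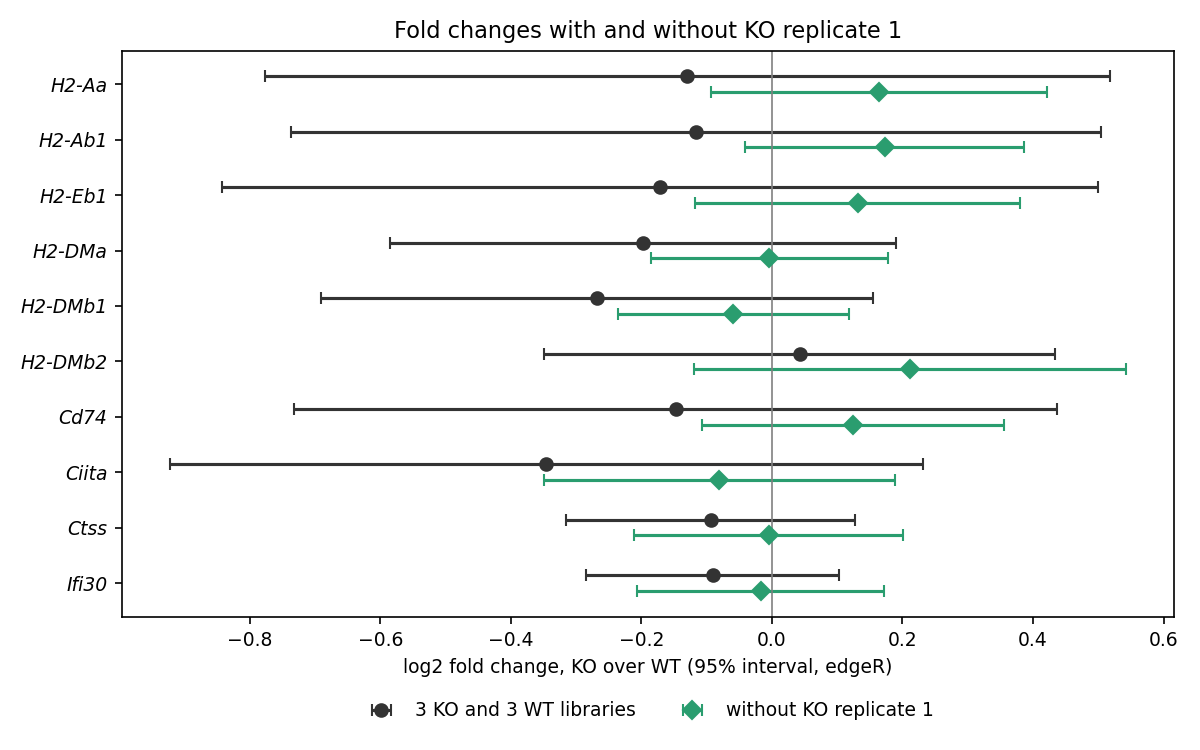
Log2 fold change of KO over WT (x axis) with its 95% interval from edgeR for the 10 genes, with all libraries (circles) and without KO replicate 1 (diamonds). All 20 intervals include 0, and the points of H2-Aa, H2-Ab1, H2-Eb1 and Cd74 lie left of 0 with all libraries and right of it without KO replicate 1.

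The peptide exchange factor DM is a pair of the H2-DMa chain and an H2-DMb chain, and it takes the invariant chain remnant out of the groove. H2-DMa (chromosome 17, 34119541 to 34139101, plus strand) was at 309, 325 and 298 CPM in WT and at 193, 304 and 315 CPM in KO. KO replicates 2 and 3 lay inside the WT range and KO replicate 1 far below it. Its log2 fold change was -0.20 (SE 0.168, interval -0.58 to 0.19, edgeR adjusted p = 0.819), and -0.0039 without KO replicate 1 (interval -0.19 to 0.18). H2-DMa overlaps the neighbouring gene Brd2 on the opposite strand.

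H2-DMb1 (chromosome 17, 34153072 to 34160230, plus strand) was at 264, 276 and 263 CPM in WT and at 153, 251 and 262 CPM in KO. It was the 1 gene of the 10 whose KO libraries all lay below the WT libraries, which 6.3% of all tested genes did, and KO replicate 3 missed WT replicate 3 by less than 1 CPM. Its log2 fold change was -0.27 (SE 0.183, interval -0.69 to 0.15, edgeR adjusted p = 0.785), and -0.059 without KO replicate 1 (interval -0.24 to 0.12).

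H2-DMb2 (chromosome 17, 34143307 to 34151555, plus strand) is a close copy of H2-DMb1. It was at 13.9, 14.8 and 15.8 CPM in WT and at 11.4, 19.4 and 14.9 CPM in KO, and the KO libraries again held the lowest and the highest value. Its log2 fold change was 0.042 (SE 0.175, interval -0.35 to 0.43, edgeR adjusted p = 0.961), and 0.21 without KO replicate 1 (interval -0.12 to 0.54). The mRNAs of the 2 copies were 95.3% identical over 1093 aligned bases, with a longest identical stretch of 221 bases, so their counts could be divided between them in a way that the files do not record. With the counts of both added up, the log2 fold change was -0.25 (edgeR adjusted p = 0.792).

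Ciita, the coactivator of the whole set, lies on chromosome 16 (10480059 to 10528418, plus strand) and overlaps Dexi on the opposite strand. Its RNA was at 66.8, 63.1 and 64.2 CPM in WT and at 30.3, 69.8 and 52.7 CPM in KO. The WT libraries were close to each other. In KO, replicate 1 was at 46.9% of the WT mean, replicate 3 was below the WT range and replicate 2 above it. Ciita had the largest fitted difference of the 10 genes, a log2 fold change of -0.35 (SE 0.249, interval -0.92 to 0.23, edgeR adjusted p = 0.792), and it was -0.081 without KO replicate 1 (interval -0.35 to 0.19). The table counts whole genes, so the alternative promoters of Ciita were not told apart.

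Ctss and Ifi30 are lysosomal enzymes, the one cutting the invariant chain and the other reducing disulphide bonds of antigens. Ctss (chromosome 3, 95526786 to 95556403, plus strand) was at 3747, 3979 and 3532 CPM in WT and at 3069, 3883 and 3596 CPM in KO. Ifi30 (chromosome 8, 70762774 to 70766663, minus strand) was at 849, 779 and 798 CPM in WT and at 679, 826 and 772 CPM in KO. For both genes KO replicate 1 was lowest, but by less than for the chains, and the other 5 libraries were mixed. Ctss had a log2 fold change of -0.094 (SE 0.0993, interval -0.32 to 0.13, edgeR adjusted p = 0.851) and Ifi30 one of -0.091 (SE 0.0866, interval -0.28 to 0.10, edgeR adjusted p = 0.839). Without KO replicate 1 the values were -0.0053 and -0.018.

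Per kilobase of mRNA, which allows levels to be compared between genes, Cd74 stood first in WT at 3775 ± 260 CPM per kb and Ctss second at 2769 ± 165 CPM per kb (SD, n = 3, as for the following levels). H2-Ab1 at 1698 ± 98.8 CPM per kb and H2-Aa at 1599 ± 170 CPM per kb followed. Their WT ranges overlapped, although H2-Ab1 was above H2-Aa in each of the 6 libraries. The WT libraries also overlapped for H2-Eb1 at 945 ± 100.2 CPM per kb and Ifi30 at 824 ± 37.4 CPM per kb, with Ifi30 the higher in WT replicate 1. H2-DMb1 and H2-DMa came next with overlapping ranges, at 191 ± 5.44 and 187 ± 8.10 CPM per kb. Ciita at 10.8 ± 0.315 and H2-DMb2 at 10.4 ± 0.640 CPM per kb were last and overlapped as well. In KO replicate 1 the order differed from that of the WT means at several points, with Ctss at 2265 CPM per kb above Cd74 at 1995 CPM per kb, and Ifi30 at 693 CPM per kb above H2-Eb1 at 445 CPM per kb.

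Within each library the chains and the invariant chain kept nearly 1 proportion. Cd74 divided by the sum of the 3 chains was 1.0006, 0.963 and 0.9749 in WT and 1.04, 0.961 and 0.950 in KO, although the sum itself ran from 2703 to 6484 CPM. The log2 ratio differed by 0.0051 between KO and WT (exact permutation p = 1). H2-Eb1 divided by H2-Aa and H2-Ab1 was 0.390, 0.412 and 0.422 in WT and 0.379, 0.396 and 0.401 in KO (log2 difference -0.058, exact permutation p = 0.3). DM RNA did not follow the chains as closely. Its sum divided by that of the chains was 0.117, 0.104 and 0.107 in WT and 0.132, 0.0887 and 0.105 in KO, highest in KO replicate 1 and lowest in KO replicate 2 (log2 difference -0.029, exact permutation p = 0.9). Ciita divided by the chains was 0.0134, 0.0106 and 0.0119 in WT and 0.0112, 0.0108 and 0.00932 in KO (log2 difference -0.20, exact permutation p = 0.3). Adjusted over the 4 ratios, the exact permutation p was 1, 0.6, 1 and 0.6 in this order, and the groups overlapped in each. Without KO replicate 1 the log2 differences were -0.036 for Cd74 to the chains, -0.034 for H2-Eb1, -0.18 for DM and -0.25 for Ciita (exact permutation p of 0.2, 0.5, 0.3 and 0.3).

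Other genes of the class II pathway were taken from 6 lists with 38 genes in the table, of which 37 could be tested. With edgeR 0 passed over all genes. At an unadjusted p under 0.05, 3 were lower in KO (Cd83, Cd40 and Icam1; 3.06% of all tested genes were) and 2 higher (Ctsl and Cd80; 3.86% of all). DESeq2 called 1, Cd83. The log2 fold change was negative for 26 of 37, with a median of -0.051, and without KO replicate 1 for 20 of 37, with a median of -0.041. KO values lay below all WT values for 4 genes (6.3% of all tested genes) and above them for 5 (6.11% of all).

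Cd83 encodes a surface protein that protects class II molecules from ubiquitination by MARCH1. It was at 638, 515 and 492 CPM in WT and at 259, 381 and 396 CPM in KO, so every KO library lay below every WT library. The log2 fold change was -0.67 (SE 0.169, interval -1.05 to -0.28), which passed with DESeq2 (adjusted p = 0.0118) and not with edgeR (adjusted p = 0.701). Without KO replicate 1 it was -0.50. March1 and March8, the ubiquitin ligases that mark class II molecules for breakdown, had log2 values of -0.075 (SE 0.0969) and -0.061 (SE 0.0778), with an edgeR adjusted p of 0.877 for both.

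Co-stimulatory and adhesion genes went both ways. Cd80, a ligand of CD28, was at 94.7, 122 and 122 CPM in WT and at 137, 135 and 142 CPM in KO (log2 0.29, SE 0.0986, edgeR adjusted p = 0.701), above WT in every KO library. Cd40, the receptor through which T cells help macrophages, was at 84.2, 44.1 and 54.0 CPM in WT and at 27.4, 44.9 and 34.0 CPM in KO (log2 -0.78, SE 0.258, edgeR adjusted p = 0.701), and the groups overlapped. Icam1, the ligand of the integrin LFA-1, was at 276, 167 and 184 CPM in WT and at 106, 159 and 139 CPM in KO (log2 -0.63, SE 0.211, edgeR adjusted p = 0.701). For Cd40 and Icam1 WT replicate 1 was by far the highest library, and without it the log2 values were -0.47 and -0.38. For Cd80 the same library was the lowest, and without it the log2 value was 0.18. Without KO replicate 1 the log2 values were -0.63 for Cd40, -0.49 for Icam1 and 0.29 for Cd80.

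**Figure D4:**
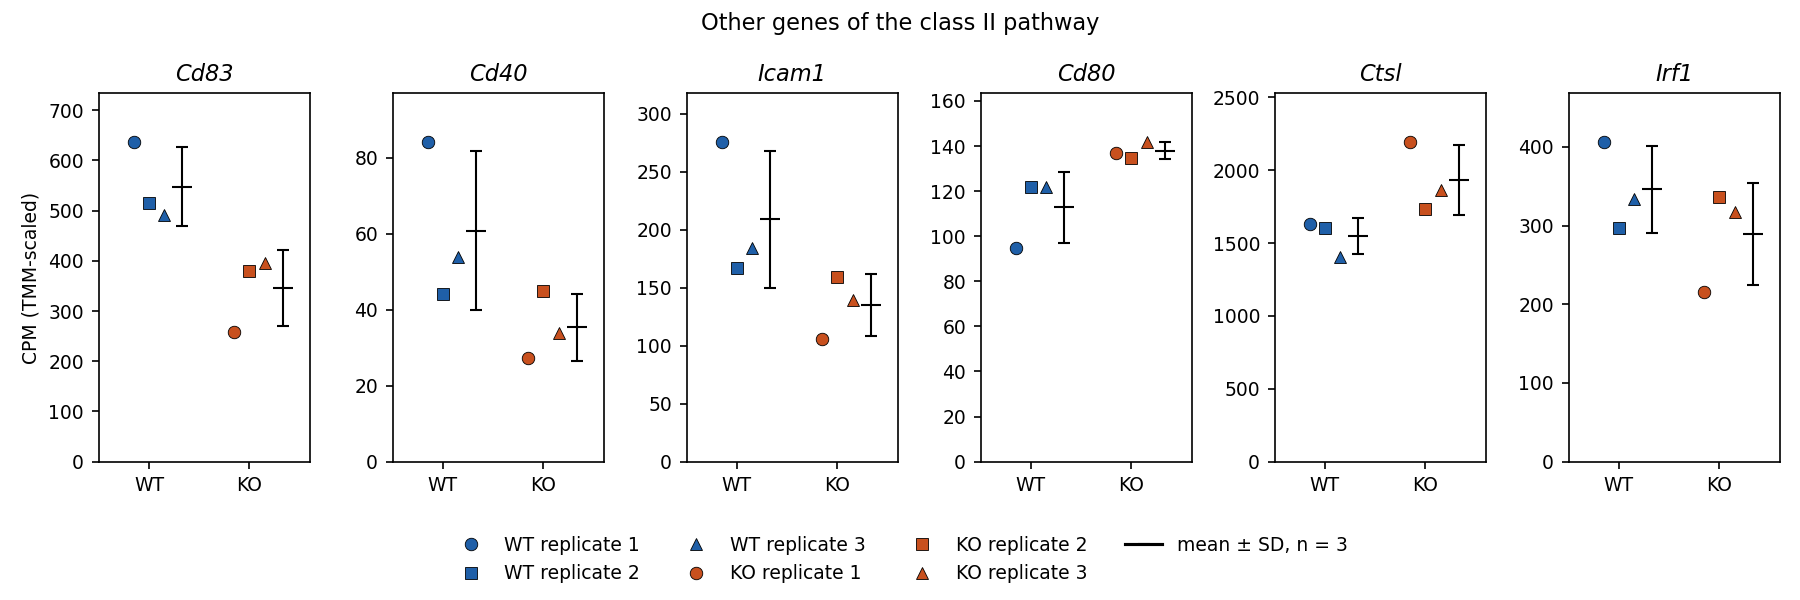
CPM (y axis, linear from 0) of 6 other genes of the class II pathway in each library, with replicates 1 to 3 as circle, square and triangle and the mean ± SD beside the points. Cd83 and Icam1 lie lower and Cd80 and Ctsl higher in every KO library than in every WT library, while the groups overlap for Cd40 and Irf1. None passed with edgeR over all genes.

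Among endosomal proteases, Ctsl, the cathepsin that cuts the invariant chain in the thymic epithelium, was at 1630, 1605 and 1403 CPM in WT and at 2196, 1734 and 1866 CPM in KO (log2 0.32, SE 0.103, edgeR adjusted p = 0.701), and without KO replicate 1 its log2 value was 0.22. Its highest library was KO replicate 1, the library in which Ctss was lowest. Sppl2a, the protease that removes the last membrane stub of the invariant chain, had a log2 value of -0.16 (SE 0.0821) and the carboxypeptidase Ctsz one of -0.16 (SE 0.0836), each with an edgeR adjusted p of 0.725. Of the 8 genes of this list 6 were negative.

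Of 7 genes for RFX, CREB and NF-Y subunits 4 were negative, with a median of -0.027. The members with the smallest p were Nfya (log2 0.13, SE 0.0701), Rfxap (0.16, SE 0.1004) and Nfyc (-0.072, SE 0.0866), with edgeR adjusted p values of 0.739, 0.777 and 0.869. The spread between KO libraries was wider for Rfx5, a DNA-binding subunit of RFX named after its values were seen, at 11.997, 18.3 and 11.4 CPM, and KO replicate 2 was the highest. KO replicate 1 was the lowest library for 1 of these 7 genes.

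Of 11 inducers and repressors of Ciita 10 were negative, with a median of -0.14. The interferon gamma receptor chains Ifngr1 and Ifngr2 had log2 values of 0.16 (SE 0.0847) and -0.16 (SE 0.0834), and the kinase Jak2 one of -0.18 (SE 0.107), with edgeR adjusted p values of 0.725, 0.725 and 0.754. Irf1, an interferon-induced transcription factor named after its values were seen, was lowest in KO replicate 1, as the class II genes were. Irf1 was at 407, 297 and 334 CPM in WT and at 216, 337 and 317 CPM in KO. In WT the orders differed, since WT replicate 1 was the highest library for Irf1 and the lowest for the sum of the class II chains. The log2 value of Irf1 was -0.26 (SE 0.178, edgeR adjusted p = 0.791), and -0.082 without KO replicate 1.

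The remaining class II genes of the region were near the floor. H2-Ob and H2-Oa, which form the DM inhibitor DO of B cells, were at 4.42 ± 0.730 and 1.38 ± 0.293 CPM in WT and at 4.96 ± 2.12 and 1.59 ± 0.885 CPM in KO (SD, n = 3 each; log2 0.17, SE 0.296, and 0.20, SE 0.444; edgeR adjusted p of 0.910 and 0.931). Both were lowest in KO replicate 1 and highest in KO replicate 2. H2-Eb2 averaged 0.637 ± 0.378 CPM over WT and 0.319 ± 0.237 CPM over KO libraries (log2 -0.97, SE 0.643, edgeR adjusted p = 0.782).

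Dendritic cells and B cells also carry class II, so their markers were compared. B cell markers were near 0: Cr2 had no read, Cd79a, Ms4a1, Pax5 and Blk were under 1 CPM in every library, and the 9 genes of the list summed to 9.95 to 13.6 CPM in WT and 12.2 to 15.3 CPM in KO. Most of that sum was Cd22, at 9.82 ± 2.16 CPM over WT and 10.6 ± 1.07 CPM over KO libraries, with Cd79b at 1.41 ± 0.168 and 1.605 ± 0.781 CPM and Fcrla at 0.807 ± 0.110 and 1.09 ± 0.261 CPM (SD, n = 3 each). Dendritic cell markers summed to 114, 96.3 and 131 CPM in WT and to 102, 139 and 121 CPM in KO over 14 genes (exact permutation p = 0.7). Their most abundant members were Fscn1, at 58.3 ± 6.40 CPM over WT and 54.6 ± 11.1 CPM over KO libraries, Ccl22, at 17.7 ± 3.93 and 19.99 ± 11.2 CPM, and Ccr7, at 11.98 ± 4.18 and 16.4 ± 6.59 CPM. Xcr1 and Siglech were under 1 CPM in every library.

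KO replicate 1 was the lowest library for 7 of the 14 dendritic cell markers and KO replicate 2 the highest for 8. The sum itself was lowest in WT replicate 2. Of the markers named after their values were seen, Zbtb46 was at 0.883 CPM in KO replicate 1 and 1.58 to 2.54 CPM elsewhere, and Batf3 at 1.92 and 4.33 to 5.25 CPM. Flt3, Ccr7, Fscn1, Itgae and Cd207 were not lowest in KO replicate 1, with Flt3 at 0.987 CPM there and 0.246 to 1.785 CPM elsewhere. The T cell and NK cell markers added up to 26.4, 22.2 and 34.3 CPM in WT and to 19.996, 53.1 and 27.6 CPM in KO over 10 genes (exact permutation p = 0.8), lowest in KO replicate 1 and highest in KO replicate 2, as for the class II chains. Of the 10 genes, 5 were lowest in KO replicate 1 and 9 highest in KO replicate 2. For comparison with both lists, KO replicate 1 was lowest for 20% of all tested genes. The share of all genes highest in KO replicate 2 was not counted. Among the T and NK cell markers Ncr1 was under 1 CPM in every library. The orders differed in WT, where replicate 2 was the lowest library for the T and NK cell sum and the highest for the chains. The log2 difference between KO and WT without KO replicate 1 was 0.19 for the dendritic cell sum, 0.55 for the T and NK cell sum and 0.18 for the B cell sum (exact permutation p of 0.4, 0.4 and 0.6). Ifng was at 0.454 to 1.84 CPM in WT and 0.519 to 1.995 CPM in KO. The part of these cells in the class II values was not tested.

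**Figure D5:**
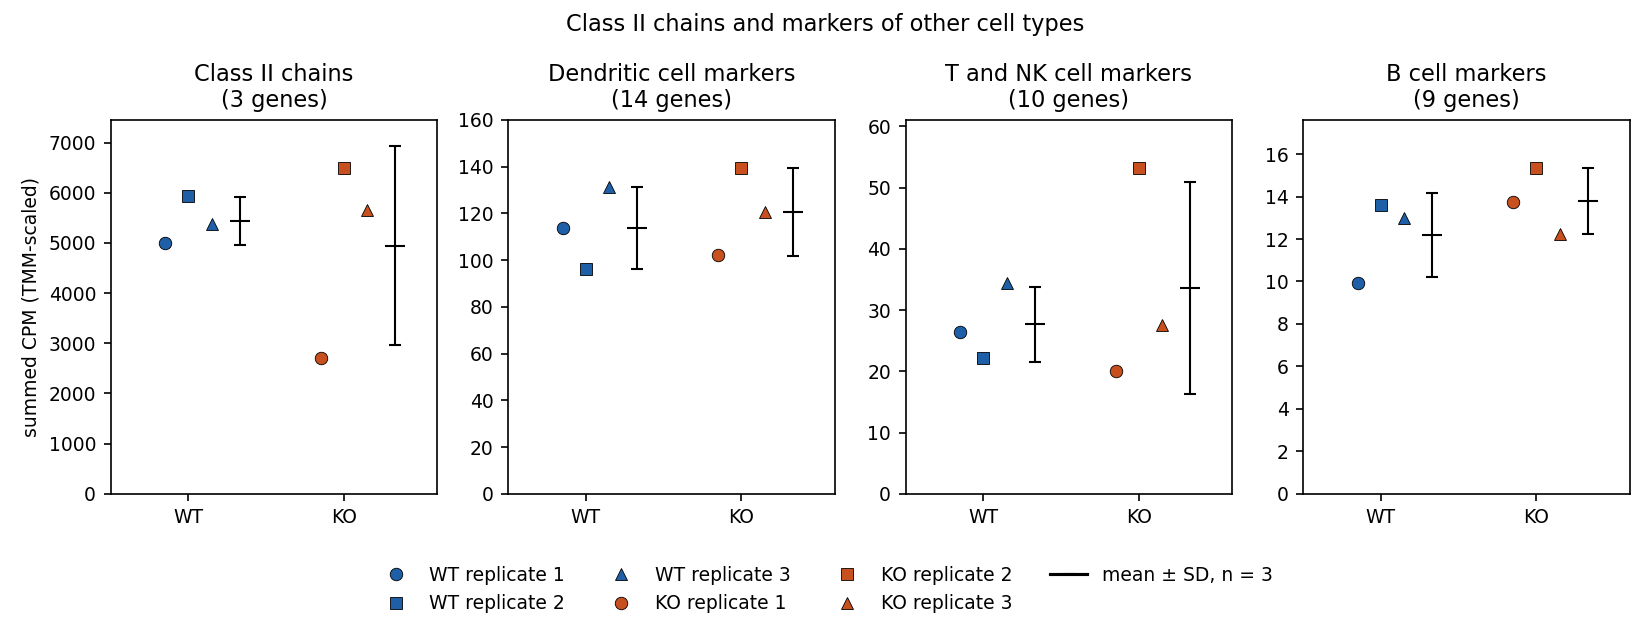
Summed CPM (y axis, linear from 0, its own scale in each panel) of the 3 class II chains and of the markers of dendritic cells, of T and NK cells and of B cells in each library, with the mean ± SD of each group. KO replicate 2 (orange square) is highest in all 4 panels, and KO replicate 1 (orange circle) is lowest for the chains and for T and NK cell markers.

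Over the 6 libraries the profile of the class II chains (log2 CPM centred on the mean of the libraries) was closest to that of Cd74, with a root mean square difference of 0.0467 on the log2 scale. Of 8445 named genes with at least 10 CPM on average, Cd74 ranked 4, behind the 3 chains that make up the profile. Ciita ranked 8 (0.160), H2-DMb1 11 (0.172), H2-DMa 15 (0.186), H2-DMb2 44 (0.249), Ctss 171 (0.309) and Ifi30 374 (0.339). The 8 other genes nearest to the chains were C3, the central complement protein (0.0967), the antimicrobial ribonuclease Rnase6 (0.124), the glutaminyl cyclase Qpct (0.154) and Pdcd1lg2, the checkpoint ligand PD-L2 (0.165). They were followed by the complement protease C1ra (0.166), the glutathione transferase Mgst1 (0.182), the guanylate-binding protein Gbp8 (0.183) and the monocyte antigen Ly6c2 (0.183). C3 was at 706, 882 and 765 CPM in WT and at 447, 964 and 753 CPM in KO. Ly6c2 was at 24.7, 22.0 and 23.0 CPM in WT and at 13.1, 27.7 and 30.9 CPM in KO. KO replicate 1 was the lowest library in each of these 8 genes, which follows from how they were chosen, since that library is the lowest point of the chain profile. None passed between KO and WT (edgeR adjusted p of 0.759 to 0.979). The choice made that likely as well, since the chains that these genes resemble did not pass.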

How the data were processed

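The authors deposited raw read counts per gene, whole numbers in 6 columns whose names match the sample titles. Per the submitters' processing notes, Trimmomatic, HISAT2, Cufflinks, HTSeq and the build mm10 were used, with no versions or roles. Per the labels' protocols, libraries were made with a stranded kit that selects mRNA. The annotation, the strand setting and the handling of reads with several matches are not given in the sources used here.

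KO was compared with WT with edgeR 4.0.16 (R 4.3.3) over the whole table: filterByExpr (minimum count 10, minimum total 15; 12136 genes, 99.962% of reads), TMM factors, a robust quasi-likelihood fit with genotype as the only term, and Benjamini-Hochberg adjustment over all tested genes (called under 0.05). Levels are CPM on TMM-scaled totals. SE is the absolute log2 fold change divided by the square root of F, and intervals (95%) use the total degrees of freedom. For sums and log2 ratios the test was an exact permutation of the genotype labels, two-sided. The script was tested on simulated data.

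Gene coordinates are from GENCODE M21 (GRCm38), promoter windows from RefSeq, and mRNA lengths from GENCODE transcripts paired with a RefSeq mRNA, or the longest transcript for Ifi30. Motif letters were chosen with these sequences in view. The genes and lists were chosen with earlier results of these data known. The rule named the 10 genes, Trmt61a, up to 3 genes of each pathway list by p, up to 3 dendritic cell and B cell markers by level, and the 8 genes nearest to the class II chains. Alternatives used DESeq2 1.42.0, limma 3.58.1 (voom, with and without quality weights), other scalings and filters, a replicate block and each library left out. Same-numbered WT and KO libraries did not deviate together (Pearson r over genes of -0.057, -0.094 and -0.11), so the numbers were not used to pair them.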

Additional observations from a re-analysis of the deposited data

How the results depend on the processing

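With each alternative 0 of the 10 genes passed, at 2 genes called in all with TMM and edgeR. The count over all genes was 1 with RLE factors, upper-quartile factors, library totals alone, no filter, limma-voom or the replicate block, 0 with a filter of 1 CPM in 3 libraries, 4 with quality weights and 29 with DESeq2, and 0 to 5 with 1 library left out. In the settings where 0 genes passed in all, the deleted gene Trmt61a did not pass either. The 0 of the 10 genes is not informative in those settings. DESeq2 called 1 other pathway gene, Cd83, and edgeR 0. With the replicate block or limma-voom the median log2 fold change of the 10 genes was -0.22. With quality weights, which give each library its own weight, it was -0.38, H2-DMb2 turned to -0.11, and Ciita and H2-DMb1 had an unadjusted p under 0.05. Of all 12136 genes tested with quality weights, 558 were higher and 513 lower in KO at such a p.

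With 1 library left out, the median of the 10 genes ran from -0.36 to 0.060. The single genes that changed sign were H2-Aa (-0.38 to 0.16), H2-Ab1 (-0.35 to 0.17), H2-Eb1 (-0.42 to 0.13), Cd74 (-0.38 to 0.12), each positive only without KO replicate 1, and H2-DMb2 (-0.17 to 0.21). The log2 difference of the chain sum ran from -0.38 to 0.16, of Cd74 to the chains from -0.036 to 0.030, and of DM to the chains from -0.18 to 0.11. For marker sums it ran from -0.032 to 0.20 for dendritic cells, -0.097 to 0.0080 for macrophages, -0.031 to 0.20 for monocytes, -0.22 to 0.55 for T and NK cells and -0.15 to 0.24 for epithelial and tumour cells. With all libraries these 5 were 0.084, -0.057, 0.080, 0.28 and 0.067, and neutrophil markers were at 0.29, with a range of 0.019 to 0.46 (exact permutation p of 0.7, 0.5, 0.7, 0.8, 0.9 and 0.6). Fn1 alone made up 17669 of the 18232 CPM of the mean WT monocyte sum. Cdh1 made up 115.1 of the 115.4 CPM of the mean WT epithelial and tumour cell sum. These sums therefore mostly follow Fn1 and Cdh1. At an unadjusted p under 0.05, 3 of 6 tested neutrophil markers (S100a8, Ltf and Mmp8) were higher in KO, against 3.86% of all genes. The median log2 value was 0.62 over the 6, and edgeR called 0. The remaining tested markers were S100a9 (log2 0.99, SE 1.26), Csf3r (0.075, SE 0.241) and Retnlg, which was negative (-0.29, SE 0.482). S100a9 had 109, 5 and 1 reads in the WT libraries. Ltf was near the floor, with 3 to 7 reads per WT library and 13 to 25 per KO library. For S100a8, KO replicate 1 at 5.30 CPM lay below WT replicate 2 at 6.20 CPM. Mmp8 was higher in every KO library than in every WT library. Ly6g, Cxcr2, Camp and Ngp, also among the 10 listed markers, were too low to be tested. Scaling turned no direction. With 3 libraries against 3, the exact tests cannot go below 0.1.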
